A study of Mus musculus with 16 samples.

Results

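The question addressed here is whether loss of Daxx and loss of Men1, when combined, gave the gene expression that the 2 single losses would give if their differences simply added up. All 16 libraries of the series entered, and 14220 of the 15156 genes in the table were tested: those that reached 10 normalized counts or more in 4 or more libraries. RNA came from pancreas of adult mice, with 4 libraries in each of 4 genotype groups. The labels number these as replicates and do not say that each came from a separate animal, so the p-values measure the spread between these libraries. WT animals were wild type, and their label names no Cre transgene. DC animals carried Daxx fl/fl with Pdx1-Cre Tg, MC animals carried Men1 fl/fl with Pdx1-Cre Tg, and DMC animals carried Daxx fl/fl and Men1 fl/fl with Pdx1-Cre Tg. All 4 groups, WT included, had received caerulein, a peptide like cholecystokinin whose excess inflames the pancreas, at 50 ug/kg per injection, with 4 hourly injections on each of 3 days a week for 3 weeks. Treatment began in animals 6 to 10 weeks old, and tissue was taken 5 days after the last treatment, so every difference is a difference within treated pancreas. The Pdx1 promoter drives Cre in the pancreatic epithelium, which leaves the floxed genes in fibroblasts, vessels and blood cells of the same tissue intact. In such bulk tissue fewer cells of a type and less RNA per cell cannot be told apart.

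Daxx is a chaperone that places the histone variant H3.3, together with Atrx, at repeats and other silent chromatin. Menin, the product of Men1, is a scaffold that links histone methyltransferase complexes and transcription factors, and its loss is best known for endocrine tumours of the pancreas and other glands. Both genes are among those most often mutated in pancreatic neuroendocrine tumours, which is the background to studying them together.

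Departure from additivity was measured as the DMC minus MC difference less the DC minus WT difference, on the scale log2(normalized count + 1). A value of 0 means that the double loss gave the product of the 2 single fold differences. A negative value means that DMC lay below that expectation, and a positive value that it lay above. The expected DMC count given for a gene is the one at which this value would be 0. The labels name Pdx1-Cre in DC, MC and DMC but not in WT. Any effect of Cre itself therefore enters DC minus WT and not DMC minus MC. A departure cannot be told apart from such an effect in this design. WT enters both single differences, so a gene chosen for its departure tends by construction to have WT on the opposite side from the single losses, and that shape is given below as description only. Comparisons of 2 groups given for such a gene use the same libraries, and the choice favours them as well.

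Recovered library sizes were 13481063 to 23728309 reads, of which 33.5% to 51.8% fell on the 10 genes with the most reads. Ctrl, which encodes a chymotrypsin-like enzyme of acinar cells, had 84572 to 647552 normalized counts in the 16 libraries. WT replicates 2 and 3 were rich in lymphoid transcripts, with a mean log2 level over B, plasma, T and NK cell genes of 7.12 and 7.81 against 3.47 to 6.67 in the other 14 libraries. DC replicate 1 had the highest level of collagen and matrix genes of all 16. Transcripts of 4 Y-linked genes were abundant in WT replicates 1 and 2, DC replicate 1, MC replicates 1 and 2 and DMC replicates 1 and 3. DC thus held 1 such library and each other group 2. Their mean log2 level was 9.14 or more in those libraries, 1.88 in DMC replicate 2 and 0.503 or less in the rest. Some counts that rest on the libraries named in this paragraph are given with and without them below.

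The targeted genes themselves behaved additively within their error. Men1 (chr19:6334979-6340891, GRCm38) stood at 331, 345, 459 and 336 normalized counts in WT and at 397, 481, 508 and 541 in DC. It stood at 127, 116, 136 and 147 in MC and at 157, 175, 161 and 178 in DMC. All 8 libraries with floxed Men1 lay below all 8 without it, and limma gave MC against WT a log2 difference of -1.47 with an adjusted p of 6.16e-05. The departure from additivity of Men1 was -0.04 (95% confidence interval -0.44 to 0.35). Daxx (chr17:33909414-33915590) stood at 232, 278, 346 and 195 in WT, at 224, 212, 245 and 212 in DC, at 223, 249, 230 and 281 in MC and at 160, 225, 179 and 162 in DMC. DC overlapped WT for Daxx, and the DC minus WT difference was -0.20, so whole-tissue Daxx RNA does not by itself separate those groups. Its departure was -0.24 (-0.73 to 0.25).

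No gene passed the threshold for a departure from additivity. Of 14220 genes, 0 (percent called 0) had a limma adjusted p under 0.05, edgeR on the recovered reads called 0 as well (smallest adjusted p 0.0766), and DESeq2 called 43, of which 30 lay below and 13 above the expectation. At an unadjusted p under 0.05 there were 1156 genes (8.13% of those tested), 655 below the expectation (4.61%) and 501 above it (3.52%). By the same limma threshold, genes were higher than WT in DC for 3 (0.0211% of those tested), in MC for 69 (0.485%) and in DMC for 84 (0.591%), and lower for 42 in MC (0.295%) and 28 in DMC (0.197%). DMC was higher than MC for 1 gene (0.00703%), Bglap3, and it was higher than DC for 38 and lower for 38 (0.267% each). The smallest adjusted p for a departure was 0.0817, shared by Steap3 and Raet1e, and 18 genes were under 0.3. The median estimate over all genes was 0.02 on the log2 scale, and the median 95% confidence interval reached 0.59 to either side, so for a typical gene a departure below about that size could not be told from 0 even before adjustment, and the adjusted threshold asks for more. The genes named in what follows are therefore the strongest candidates in these libraries, and are described by their values.

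Among the 12 leading genes below the expectation, the level was usually higher than WT after either single loss and near WT after both. In 11 of the 12 both single losses had means above WT, against 30.2% of all genes tested, and in all 12 the DMC mean was below both single losses, against 30.4%. The choice of genes by this contrast favours both shapes. In 11 the DMC libraries overlapped WT, which is no more than the 91.8% of all genes where they did. Their adjusted p ran from 0.0817 to 0.286 with limma.

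Steap3 (chr1:120190757-120272705) encodes an endosomal ferrireductase, which reduces iron taken up with transferrin. Its normalized counts were 216, 159, 165 and 169 in WT and 286, 304, 279 and 242 in DC. They were 361, 362, 220 and 289 in MC and 167, 158, 185 and 181 in DMC. Every DC and every MC library was above every WT library, and every DMC library was back below all of DC and all of MC. Additivity would have placed DMC at 475, and its geometric mean was 172, a departure of -1.46 ± 0.22 (SE; interval -1.93 to -0.99, adjusted p 0.0817). In limma the rise in MC passed the threshold (0.78, adjusted p 0.0309). Over 31 alternative analyses the Steap3 estimate stayed between -1.61 and -1.30, and its adjusted p between 2.53e-06 (DESeq2) and 0.28, with 8 of them under 0.05.

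Slc1a5 (chr7:16781340-16798274), the transporter of glutamine and other neutral amino acids known as ASCT2, showed a similar shape at a higher level. Its MC libraries overlapped WT, unlike those of Steap3. WT stood at 442, 1018, 1170 and 611 and DC at 1692, 1210, 1408 and 1976. MC stood at 620, 1668, 1493 and 1457 and DMC at 615, 613, 560 and 489. All 4 DMC libraries were thus below all 8 libraries of the single losses, with MC replicate 1, at 620, only just above them. The departure was -2.15 ± 0.44 (adjusted p 0.27), and DMC stood at 567 where 2512 would have been additive. Over 31 alternatives the Slc1a5 departure ran from -2.68, without the 2 lymphoid-rich WT libraries, to -1.71, with library quality weights. It was called in 2 of them, that first one (adjusted p 0.0414) and DESeq2 (0.0015), and the adjusted p reached 0.496.

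Both leading receptor genes for fibroblast growth factors lay below the expectation. Fgfr3 (chr5:33721674-33737068) stood at 622, 331, 537 and 502 in WT, at 746, 850, 1122 and 774 in DC, at 621, 764, 609 and 614 in MC and at 461, 424, 554 and 519 in DMC. DC was above WT without overlap, while DMC was below MC without overlap, and the departure was -1.24 ± 0.25 (adjusted p 0.27). Fgfr2 stood at 286, 235, 266 and 300 in WT, at 535, 427, 510 and 398 in DC, at 272, 311, 315 and 470 in MC and at 300, 263, 261 and 285 in DMC. All 4 DC libraries were above WT and above DMC, and DMC was within the WT range, with a departure of -1.05 ± 0.22 (adjusted p 0.27). In the direct comparison of DMC with DC, limma called both receptors lower in DMC, with adjusted p of 0.0484 for Fgfr3 and 0.0376 for Fgfr2. DMC and DC also enter the departure, so the choice of these genes favours that difference.

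Itgbl1 (chr14:123659971-123975618), which encodes a secreted protein with integrin-like repeats, stood at 129, 114, 78.3 and 94.4 in WT. It stood at 508, 251, 238 and 185 in DC, at 225, 268, 184 and 365 in MC and at 184, 171, 154 and 126 in DMC. Here DMC stayed above most of WT and did not return fully: its geometric mean was 157 against 102 in WT, 274 in DC, 252 in MC and an additive 674. The departure was -2.09 ± 0.39 (adjusted p 0.27), and MC against WT passed the limma threshold (1.30, adjusted p 0.0408).

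Rsad1, a radical SAM domain gene, was the exception in shape. It stood at 81.3, 79.6, 109 and 121 in WT, at 130, 114, 161 and 167 in DC, at 95.6, 100.01, 93.0 and 84.9 in MC and at 70.1, 54.8, 45.7 and 39.3 in DMC. MC was level with WT and DMC lay below all 12 other libraries, so the double loss went below any single state rather than back to WT (departure -1.40 ± 0.28, adjusted p 0.27). Against DC, DMC was lower by limma with an adjusted p of 0.00422.

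Ednra, the type A endothelin receptor, stood at 26.5 to 36.7 for WT, 55.0 to 92.4 for DC, 40.4 to 82.0 for MC and 31.4 to 50.7 for DMC, with a departure of -1.68 ± 0.36 (adjusted p 0.286). Col4a3, a chain of basement membrane collagen, stood at 37.1 to 49.8 for WT, 70.4 to 117 for DC, 55.1 to 92.1 for MC and 43.3 to 58.3 for DMC, a departure of -1.38. Fam198a, a Golgi-associated kinase-like gene, had a departure of -1.65, with WT at 27.1 to 52.7, DC at 77 to 104, MC at 50.2 to 102 and DMC at 40.6 to 74.9. For all 3 genes DC was apart from WT, and DMC overlapped both WT and MC. Ednra, with a mean of 51.0 over all libraries, passed the minimum of 50 for naming through the single losses. That favours a negative estimate.

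**Figure D1:**
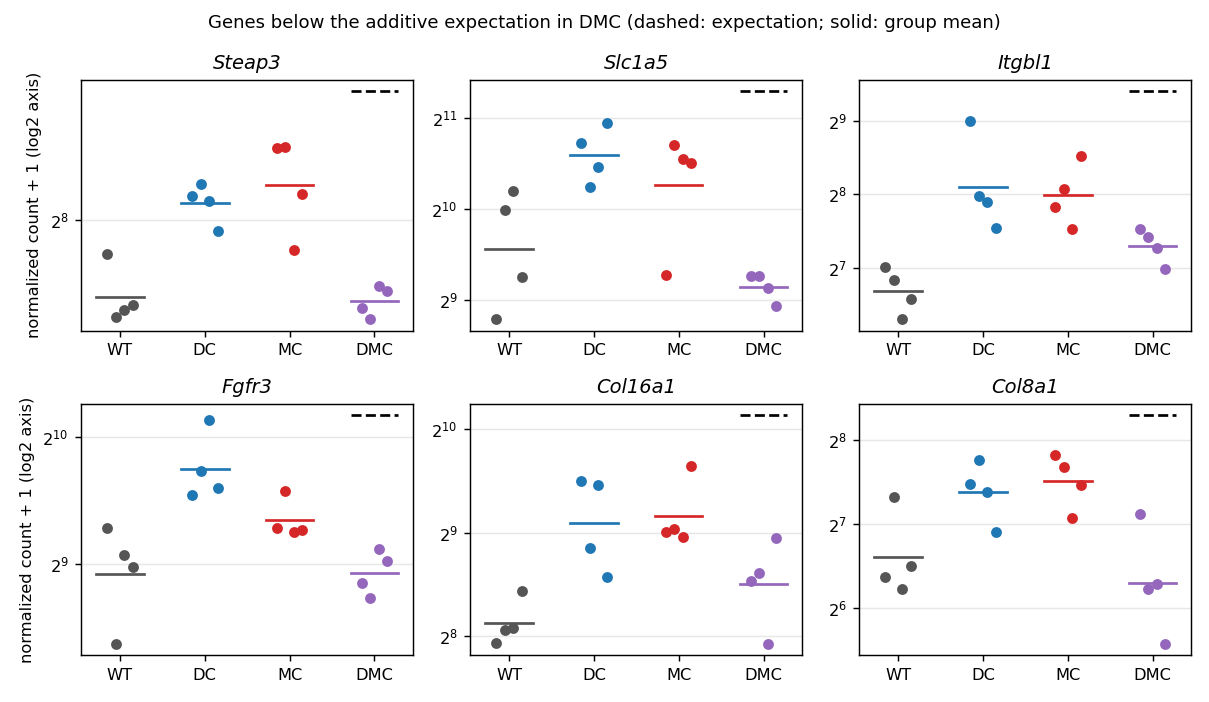
Normalized count plus 1 on a log2 axis for 6 genes below the additive expectation, 1 point per library and 4 libraries per group, with solid lines at group means of log2 values and the dashed line at the level additivity would give in DMC. All 4 DMC points lie below the dashed line in each panel, 172 observed against 475 expected for Steap3 and 567 against 2512 for Slc1a5.

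A gene whose single effect of Daxx loss was inverted when Men1 was lost too would have every DC library on one side of every WT library and every DMC library on the opposite side of every MC library. Of 14220 genes, 9 had this crossing pattern (0.0633% of those tested), and in all 9 the level was higher in DC than WT and lower in DMC than MC. This is a description with no test, and unrelated libraries would also give some such genes. They were Steap3, Slc1a5, Fgfr3 and Col16a1, which are described in this text, with Raet1e, Ppp2r3d, Foxc1, Odf2l and the predicted gene Gm45844. Raet1e, chosen after its values were seen, encodes a ligand of the NK cell receptor NKG2D. Its counts were 30.1, 4.52, 9.79 and 16.5 in WT, 34.3, 34.0, 31.9 and 36.3 in DC, 22.1, 22.2, 31.3 and 18.1 in MC and 1.82, 3.38, 2.61 and 5.48 in DMC. DMC was thus near the floor of detection while both single losses held 18.1 or more, a departure of -3.93 ± 0.62 (adjusted p 0.0817). Raet1e lies in a cluster of near-identical genes, so its counts are uncertain. Ppp2r3d, a regulatory subunit gene of protein phosphatase 2A, stood at 54.8 to 83.5 for WT, 90.4 to 163 for DC, 92.0 to 124 for MC and 61.9 to 86.8 for DMC. Odf2l had the smallest departure of the 9, at -0.40, with WT at 176 to 225, DC at 226 to 241, MC at 224 to 235 and DMC at 180 to 217.

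Among the 12 leading genes above the expectation the usual shape was the mirror image, with lower levels after a single loss and WT-like levels after both. In 10 of the 12 both single losses had means below WT, against 35.8% of all genes, in 10 the DMC mean was above both single losses, against 32.1%, and in 11 DMC overlapped WT, again near the share of all genes. Adjusted p ran from 0.286 to 0.385 with limma, larger than on the other side.

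Tdh (chr14:63492347-63509092), the mitochondrial threonine dehydrogenase that turns threonine into glycine and acetyl-CoA, stood at 2714, 1716, 959 and 495 in WT, at 1295, 1926, 1019 and 1955 in DC, at 125, 122, 85.9 and 116 in MC and at 464, 637, 763 and 774 in DMC. MC lay below all other libraries, and limma called the fall from WT (-3.44, adjusted p 0.000526). With Daxx also lost, DMC was above MC without overlap and at 646 against an additive 136, a departure of 2.24 ± 0.55 (adjusted p 0.335). DC itself did not differ from WT beyond its spread. Over 31 alternatives the Tdh departure ran from 1.85, without WT replicate 1, to 2.67, without WT replicate 4. It was called in 2 of them, the latter (adjusted p 0.0371) and DESeq2 (0.00452), and the adjusted p reached 0.64.

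Dio1 (chr4:107291465-107307169), the deiodinase that activates thyroid hormone, had the largest estimate of this group. Its counts were 84.9, 35.3, 6.53 and 8.78 in WT and 12.2, 2.49, 3.42 and 5.50 in DC. They were 6.13, 34.9, 26.3 and 37.0 in MC and 98.4, 92.7, 163 and 222 in DMC. Every DMC library was above all 12 others, while the WT libraries spread over more than an order of magnitude. The departure was 4.44 ± 1.02 (adjusted p 0.335), and DMC against DC passed the limma threshold (4.49, adjusted p 0.0107).

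Arntl2, a paralogue of the core clock gene Arntl, stood at 279, 162, 30.2 and 221 in WT, at 39.2, 61.4, 51.3 and 35.2 in DC, at 170, 65.1, 51.5 and 44.2 in MC and at 161, 178, 270 and 234 in DMC. DMC was close to the 3 high WT libraries, while WT replicate 3 and most libraries of the single losses were low. The departure was 3.04 ± 0.78 (adjusted p 0.356). Over 31 alternatives the Arntl2 departure ran from 2.64 to 3.94. It was called in 3 of them, without WT replicate 3 (3.74, adjusted p 0.0194), without WT replicates 2 and 3 (0.0311) and with DESeq2 (0.00615), and the adjusted p reached 0.664.

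Cep85, a centrosomal protein gene, and Sh3bgrl3, a small thioredoxin-fold protein gene, are neighbours on chromosome 4, on the same strand with 1068 bases between them. Cep85 stood at 730, 645, 414 and 264 in WT, at 323, 322, 333 and 308 in DC, at 232, 241, 231 and 228 in MC and at 547, 297, 524 and 430 in DMC. Sh3bgrl3 stood at 293, 515, 441 and 206 in WT, at 379, 230, 234 and 162 in DC, at 186, 210, 247 and 265 in MC and at 505, 440, 374 and 501 in DMC. For both, DMC was above MC without overlap and within the WT range. Their departures were 1.47 ± 0.36 and 1.52 ± 0.38 (adjusted p 0.335 each).

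Abca5, a lysosomal lipid transporter gene, stood at 645, 539, 531 and 658 in WT, at 515, 522, 487 and 608 in DC, at 344, 295, 334 and 392 in MC and at 482, 486, 515 and 594 in DMC. MC lay below all libraries of the other 3 groups, and limma called its fall from WT (-0.80, adjusted p 0.00544). The departure was 0.76 ± 0.16 (adjusted p 0.286), with DMC at 517 where 305 would have been additive.

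The other 6 leading genes on this side departed by 0.51 to 1.08. Elovl7, a fatty acid elongase gene, departed by 1.08, with WT at 175 to 281, DC at 123 to 209, MC at 148 to 260 and DMC at 250 to 273. Gpd2, the mitochondrial glycerol-3-phosphate dehydrogenase gene, departed by 0.87, with DMC at 449 to 513 above MC at 293 to 391 and DC at 292 to 405. Mta2, a subunit gene of the NuRD chromatin complex, departed by 0.91, and it lies 2.61 Mb from Men1 on chromosome 19. Sae1, a subunit gene of the enzyme that activates SUMO, departed by 0.76, with DC at 350 to 443 below WT at 521 to 576 and DMC at 496 to 613. Atm, the DNA damage kinase gene, departed by 0.51, with WT at 1459 to 1593, DC at 1162 to 1302, MC at 1151 to 1440 and DMC at 1291 to 1685. Mif4gd, a translation factor gene for histone messages, departed by 0.73, with both single losses below all of WT and DMC, at 206 to 260.5, overlapping all 3 other groups.

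**Figure D2:**
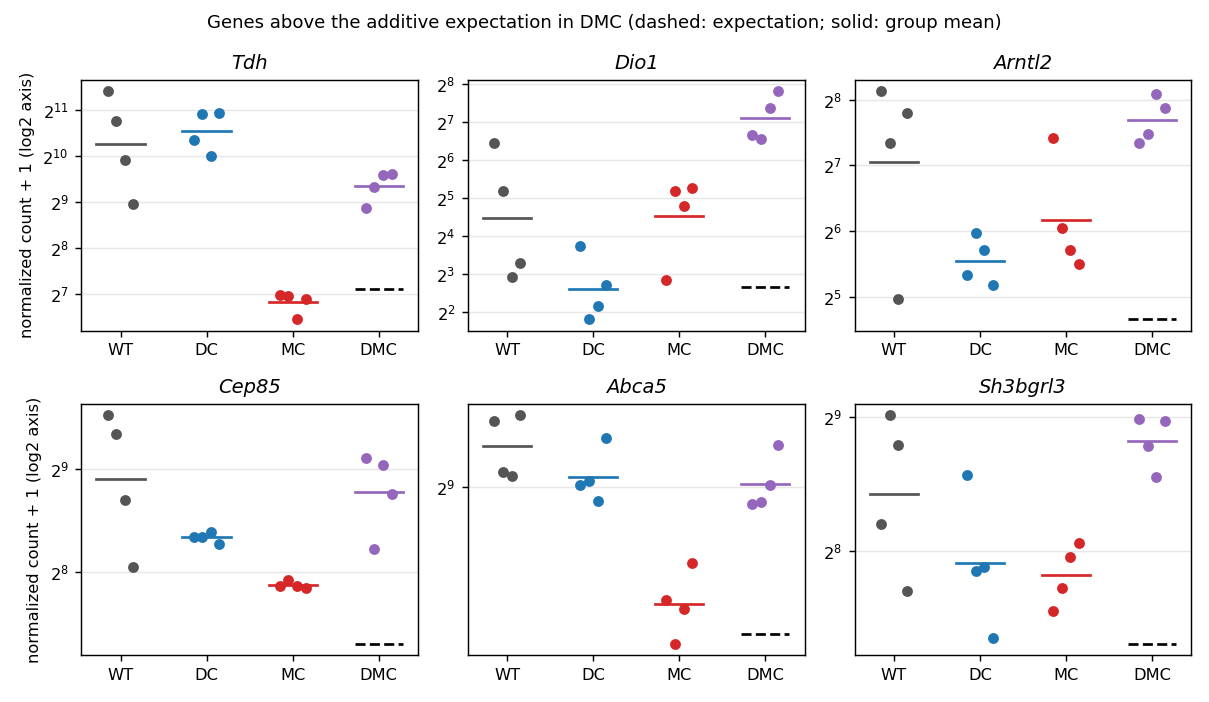
Normalized count plus 1 on a log2 axis for 6 genes above the additive expectation, drawn as in the plot of genes below it, with dashed lines at the additive level for DMC. The 4 DMC points lie above the dashed line in each panel, 646 observed against 136 expected for Tdh and 135 against 5.26 for Dio1.

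The functional groups were described with 38 gene lists of at least 5 tested members, chosen with earlier results of these data known. Each list's count is set beside the share of all genes, 4.61% below and 3.52% above the expectation at an unadjusted p under 0.05, and no member of any list passed the adjusted threshold. Numbers of positive and negative estimates compare with 52.1% positive among all genes tested. The plot of members by list shows collagen and matrix, neutrophil and odorant binding genes farthest below, and cell cycle, and fatty acid and ketone genes farthest above. The neutrophil share rests on 4 of 8 tested members. The odorant binding share rests on 3 of 6, Obp2b among them, which was at the floor in MC and DMC. With library quality weights that count was 1.

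**Figure D3:**
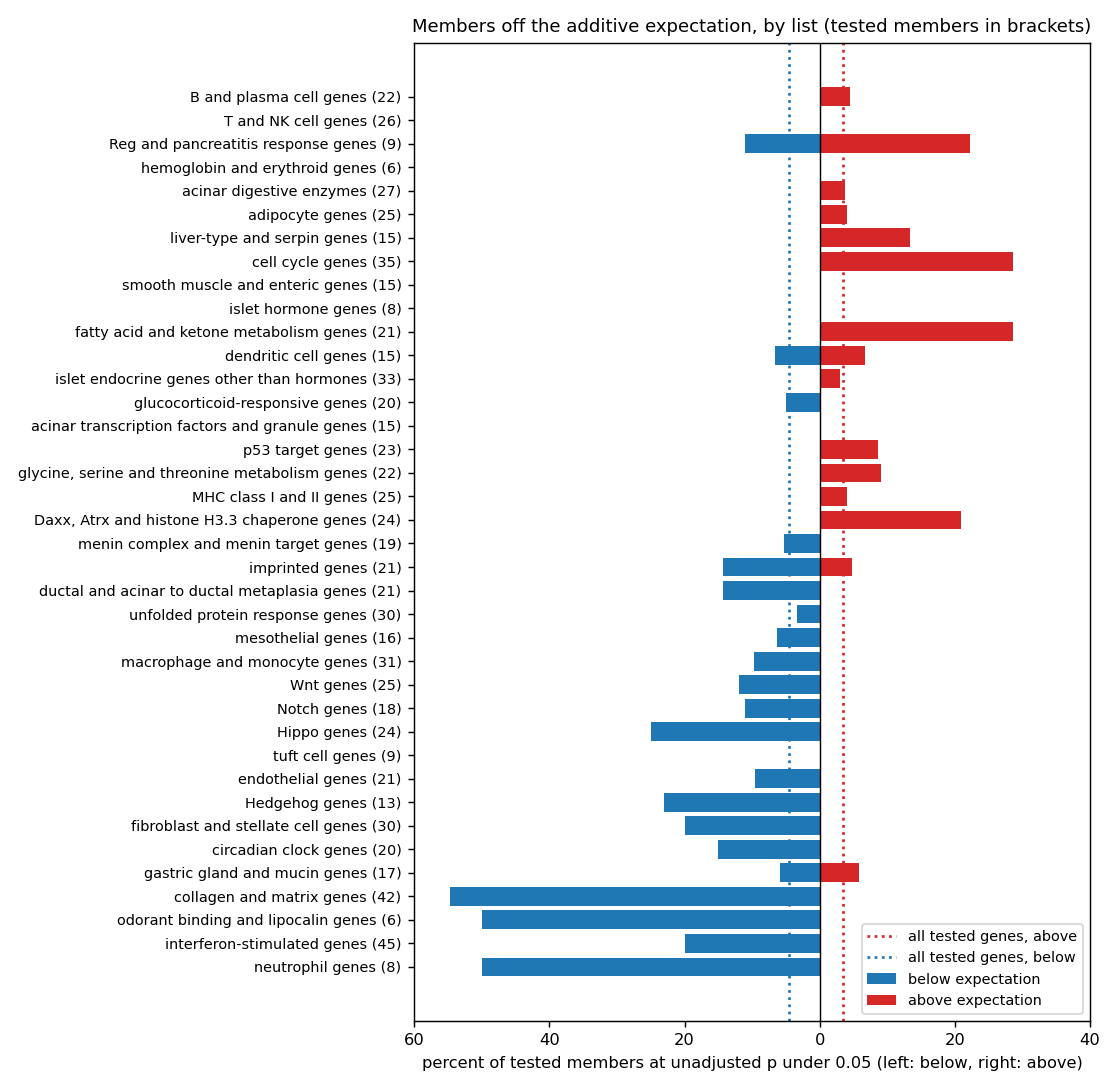
Percent of tested members of each gene list at an unadjusted limma p under 0.05, to the left for departures below the additive expectation and to the right for those above it, with dotted lines at the shares over all tested genes (4.61% and 3.52%). Collagen and matrix genes reach 54.8% on the left, and cell cycle and fatty acid and ketone metabolism genes 28.6% on the right.

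Genes for collagens and other matrix proteins, the scar tissue of chronic pancreatitis, were the group with the most members below the expectation. Of 42 tested members 41 had a negative estimate and 23 (54.8%) were at an unadjusted p under 0.05, all on that side, with a median of -0.87 against 0.02 for all genes. Col1a1, the main chain of collagen I, was chosen after its values were seen. It stood at 1243, 1927, 1891 and 1913 in WT, at 4322, 2705, 5160 and 2854 in DC, at 1936, 4280, 2534 and 3297 in MC and at 2127, 2171, 1433 and 3572 in DMC. All 8 libraries of the single losses were above all of WT, and DMC overlapped WT and MC, a departure of -1.47 ± 0.41 (adjusted p 0.39).

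Col16a1, a fibril-associated collagen gene, stood at 244, 266, 270 and 345 in WT and at 723, 463, 704 and 379 in DC. It stood at 512, 525, 498 and 802 in MC and at 370, 391, 243 and 493 in DMC, so that every DMC library lay below every MC library and 3 of the 4 above every WT library (departure -1.63 ± 0.34, adjusted p 0.27). Col8a1, a network-forming short collagen gene, stood at 81.3, 159, 73.4 and 88.9 in WT, at 178, 217, 165 and 119 in DC, at 225, 203, 133 and 176 in MC and at 138, 73.8, 77.1 and 46.6 in DMC. Its DMC level was no higher than WT, with a departure of -1.99 ± 0.43 (adjusted p 0.286). Col5a1, whose product starts collagen I fibrils, stood at 826 to 1087 for WT, 1370 to 2105 for DC, 1096 to 1499 for MC and 776 to 1429 for DMC (departure -1.18, adjusted p 0.286). Enzymes that cross-link or cut matrix were also below, with Lox at -1.35, Loxl1 at -1.17, Loxl2 at -0.78 and Mmp2 at -1.04. Fmod, a small proteoglycan gene, was the only member above, at 0.74.

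The level of the matrix list, as the mean log2 over its members less the mean of all libraries, was -0.47 to -0.24 in WT, -0.14 to 0.94 for DC, -0.07 to 0.40 for MC and -0.56 to 0.13 for DMC. Leaving out DC replicate 1, the highest, left 18 members below at an unadjusted p under 0.05 with a median of -0.71. Leaving out WT replicates 2 and 3 also left 18, with a median of -0.87, and over all alternatives the count was 18 to 28.

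Markers of the cells that make matrix had a smaller median departure. Of 30 tested fibroblast and stellate cell genes, 23 had a negative estimate and 6 (20%) were below at an unadjusted p under 0.05, with a median of -0.48. Sfrp1, a secreted Wnt antagonist, stood at 217 to 318 for WT, 362 to 779 for DC, 417 to 845 for MC and 324 to 607 for DMC, so all 3 mutant groups were above WT while DMC was short of the additive 1138 (departure -1.33 ± 0.36). Mfap5, a microfibril protein gene, departed by -1.18 and Gas1, a Hedgehog co-receptor gene, by -0.92. Without DC replicate 1 the fibroblast median was -0.25 with 4 members below, and without DC replicate 4 it was -0.60 with 10. The part of fibroblast number in the matrix result was not tested.

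The Hippo pathway restrains the coactivators YAP and TAZ, which with TEAD factors switch on genes of growth and matrix. Of 24 tested Hippo genes, 18 had a negative estimate and 6 (25%) were below at an unadjusted p under 0.05, with a median of -0.29. Amotl2, a YAP target whose product also binds YAP, stood at 534, 411, 540 and 654 in WT, at 974, 671, 725 and 758 in DC, at 882, 941, 689 and 776 in MC and at 578, 603, 708 and 673 in DMC. Both single losses were above all of WT, and DMC overlapped WT, a departure of -0.91 ± 0.21 (adjusted p 0.335). Ctgf, a secreted matricellular target that also belongs to the matrix list, stood at 163 to 316 for WT, 348 to 1083 for DC, 229 to 376 for MC and 208 to 338 for DMC (departure -1.54 ± 0.43). Vgll3, a TEAD cofactor gene, departed by -1.29, Tead1 by -0.67, Tead4 by -1.39 and Nf2, the upstream tumour suppressor gene, by -0.55. Without MC replicate 1, and without WT replicates 2 and 3, the count fell from 6 to 3.

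Interferon-stimulated genes are switched on together by interferon signalling, through factors that bind the interferon response element in their promoters. Of 45 tested members 43 had a negative estimate, with a median of -1.01, and 9 (20%) were below at an unadjusted p under 0.05. The promoters of Ifit3 and Ifit1, antiviral genes that sense foreign RNA, are shown because most members of this group lay on the same side. Each is the RefSeq window from 250 bases before to 50 after the gene start on GRCm38.p6, chr19:34583279-34583578 and chr19:34640639-34640938, both on the plus strand, with the interferon response element in capitals, searched on either strand as GAAA, any 2 bases and GAAA.
Ifit3: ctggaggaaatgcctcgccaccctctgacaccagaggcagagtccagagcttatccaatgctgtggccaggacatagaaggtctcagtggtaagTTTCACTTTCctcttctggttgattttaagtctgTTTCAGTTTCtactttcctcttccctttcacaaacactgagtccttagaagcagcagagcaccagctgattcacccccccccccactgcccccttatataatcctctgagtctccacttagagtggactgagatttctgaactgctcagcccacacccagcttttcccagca
Ifit1: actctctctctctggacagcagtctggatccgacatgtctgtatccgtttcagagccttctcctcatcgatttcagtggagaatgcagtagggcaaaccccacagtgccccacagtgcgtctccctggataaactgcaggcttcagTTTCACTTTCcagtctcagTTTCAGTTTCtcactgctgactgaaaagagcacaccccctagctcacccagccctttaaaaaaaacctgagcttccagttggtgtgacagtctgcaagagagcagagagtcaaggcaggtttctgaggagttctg
Both windows hold 2 matches, each written on the opposite strand, TTTCACTTTC and TTTCAGTTTC. Of the 33 tested members with an entry in the promoter table, 19 (57.6%) held a match, against 433 of 11086 tested genes with an entry (3.91%). A match is a description of the letters and not of binding.

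Ifit3 stood at 21.2, 77.8, 301 and 67.0 in WT, at 113, 146, 169 and 140 in DC, at 407, 335, 340 and 450 in MC and at 120, 310, 92.7 and 128 in DMC. All 4 MC libraries were above the other 12, and 3 of the 4 DMC libraries, all but replicate 2, stood near DC, a departure of -2.25 ± 0.77 (adjusted p 0.51). DMC stood at 145 where 694 would have been additive. Ifit1, chosen after its values were seen, stood at 38.9, 85.0, 241 and 63.7 in WT, at 95.5 to 145 for DC, at 210 to 400 for MC and at 102, 257, 84.9 and 102 in DMC (departure -1.76 ± 0.63). Ifit3b, a near-identical copy that can share reads with Ifit3, departed by -2.05 and Phf11d by -1.32. Isg15, a ubiquitin-like modifier gene, departed by -2.18, Ifi44 by -2.55 and the membrane tether gene Bst2 by -1.64.

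The interferon result depended on a few libraries. WT replicate 3, 1 of the lymphoid-rich pair, had the highest level of the list, 1.10 against -1.79, -0.03 and -0.97 in the other WT libraries, and DMC replicate 2 stood at 0.78 against -0.67 to -0.25 in the other DMC libraries. MC stood at 0.07 to 0.92 and DC at -0.20 to 0.15. Without WT replicates 2 and 3, 40 of the 45 members were below at an unadjusted p under 0.05, against 5.29% of all genes in that analysis, and the median was -1.95. Without WT replicate 3 alone the count was 33, without DMC replicate 2 it was 22, without MC replicate 3 it was 15 and without DMC replicate 3 it was 5. The share of all genes below in these 4 analyses was 3.85% to 5.25%. With edgeR the count was 3 of 45, against 4.4% of all genes, and with DESeq2 5, against 5.01%, with medians of -0.54 and -0.59. Without WT replicate 1 the median was -0.66. The direction of the median was the same throughout.

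Neutrophil genes had the lowest median of all lists. Only 8 of the 16 listed genes passed the filter and were tested. All 8 tested members had a negative estimate, 4 (50%) were below at an unadjusted p under 0.05, and the median was -1.50. S100a9, which encodes a subunit of calprotectin, stood at 3.54, 12.7, 6.53 and 13.2 in WT, at 25.7, 655, 11.4 and 154 in DC, at 39.2, 19.0, 67.7 and 31.2 in MC and at 5.46, 8.12, 19.6 and 1.83 in DMC. S100a8, the other subunit, stood at 20.8, 436, 5.70 and 112 in DC and at 0.914 to 11.8 for DMC, and Ltf, the lactoferrin gene, at 20.2, 326, 10.3 and 83.6 in DC and 1.31 to 8.80 for DMC. DC replicate 2 was the highest library for all 3, and DC spanned more than an order of magnitude. Departures were -5.33 ± 1.35 for S100a9, -5.00 ± 1.44 for S100a8 and -5.24 ± 1.29 for Ltf (adjusted p 0.346, 0.398 and 0.335). These genes are low, near a floor of 1.84 to 5.30 normalized counts for 3 reads, in WT and DMC. Genes this low there pass the filter mainly through the single losses, which by construction favours a negative estimate. With a minimum count of 50 in 4 libraries only 1 member was left below.

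**Figure D4:**
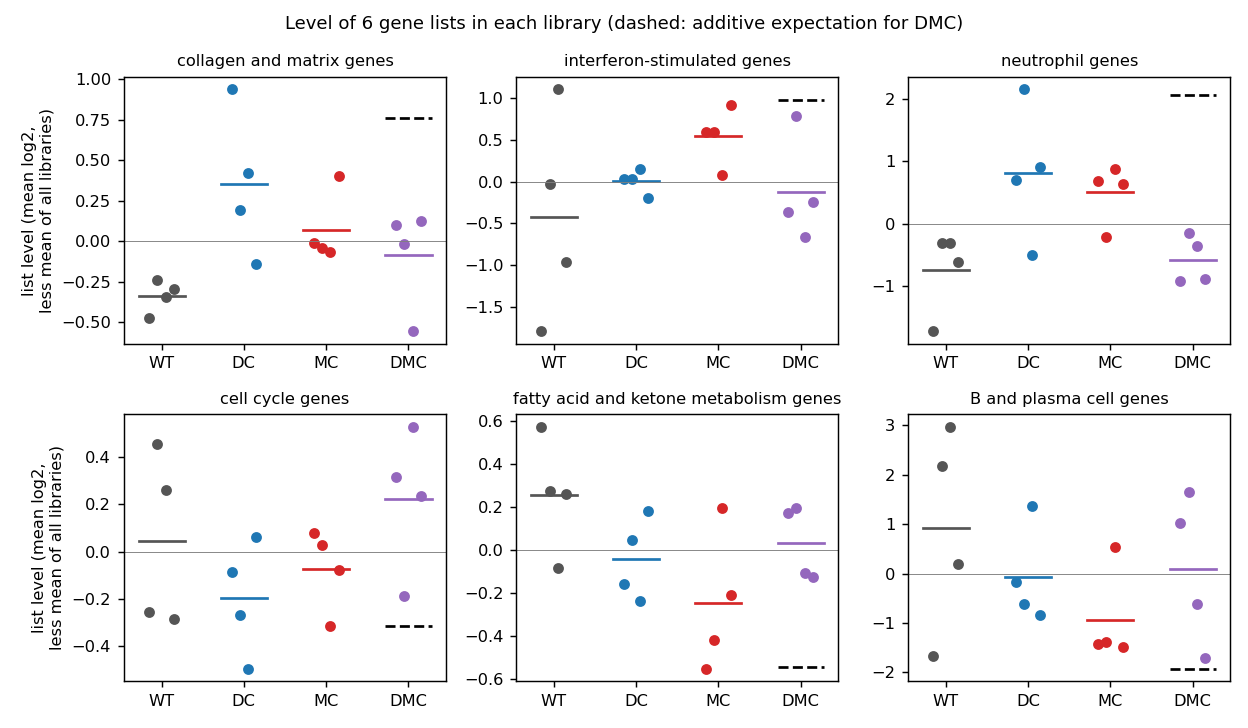
Level of 6 gene lists in each library, as the mean log2 over the members less the mean of all 16 libraries, with solid lines at group means and dashed lines at the additive level for DMC. DMC lies under the dashed line for the matrix, interferon and neutrophil lists and over it for the cell cycle, fatty acid and ketone, and B and plasma cell lists, with WT spread from -1.67 to 2.98 for the last.

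Cell cycle genes lay mostly above the expectation. Of 35 tested members 32 had a positive estimate and 10 (28.6%) were above at an unadjusted p under 0.05, with a median of 0.51. All 6 subunits of the MCM helicase, which opens DNA at origins, were among the 10: Mcm5 at 1.35, Mcm6 at 1.47, Mcm4 at 1.02, Mcm2 at 0.90, Mcm3 at 0.89 and Mcm7 at 0.73. Pcna, the polymerase clamp gene, stood at 0.82, Rrm2, a ribonucleotide reductase subunit gene, at 0.82, and E2f1 at 0.70.
E2F factors drive this class of genes, and the windows of Mcm5 (chr8:75109259-75109558, plus strand) and Mcm6 (chr1:128359656-128359955, minus strand) are shown, with matches to TTTCCCGC, TTTCGCGC, TTTGCCGC or TTTGGCGC on either strand in capitals, overlapping matches merged.
Mcm5: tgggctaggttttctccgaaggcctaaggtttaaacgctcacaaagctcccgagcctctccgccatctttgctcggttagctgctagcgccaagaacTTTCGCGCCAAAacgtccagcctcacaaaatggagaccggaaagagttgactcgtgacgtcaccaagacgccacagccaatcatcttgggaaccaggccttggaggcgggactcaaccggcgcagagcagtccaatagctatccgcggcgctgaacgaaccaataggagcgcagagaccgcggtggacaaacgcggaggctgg
Mcm6: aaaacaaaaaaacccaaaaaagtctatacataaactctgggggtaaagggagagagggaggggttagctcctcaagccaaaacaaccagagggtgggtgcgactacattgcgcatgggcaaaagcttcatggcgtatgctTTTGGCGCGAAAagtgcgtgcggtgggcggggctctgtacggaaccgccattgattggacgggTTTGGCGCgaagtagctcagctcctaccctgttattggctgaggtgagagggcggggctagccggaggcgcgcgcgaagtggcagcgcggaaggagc
Such a match was held by 7 of 26 tested members with an entry (26.9%), against 488 of 11086 genes (4.4%). Among the genes named here Mcm3, Mcm5, Mcm6 and Mcm7 held a match, while Mcm2, Pcna, Rrm2 and E2f1 did not. Here too a match describes letters and not binding, and its part in the departures was not tested.

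Mcm5 stood at 320, 572, 485 and 225 in WT, at 381, 216, 219 and 228 in DC, at 234, 229, 259 and 274 in MC and at 398, 273, 537 and 564 in DMC. Mcm6 stood at 594, 1088, 643 and 448 in WT, at 843, 421, 432 and 381 in DC, at 342, 211, 535 and 400 in MC and at 689, 562, 708 and 1061 in DMC. For Mcm6 all of DMC was above all of MC, and for both genes DMC was in the WT range, with departures of 1.35 ± 0.40 and 1.47 ± 0.45 (adjusted p 0.398 and 0.42). WT replicate 2, lymphoid-rich, was the highest WT library for both. Without WT replicate 2 the number of members above fell from 10 to 6, and without WT replicates 2 and 3 to 4, with a median of 0.28. The part of lymphoid cells in the cell cycle result was not tested.

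Genes of fatty acid oxidation and ketone making lay above the expectation in 20 of 21 tested members, 6 of them (28.6%) at an unadjusted p under 0.05, with a median of 0.30. Hadha and Hadhb encode the 2 subunits of the mitochondrial trifunctional protein, and start 85 bases apart on opposite strands of chromosome 5. Hadha stood at 1634, 1617, 1339 and 1463 in WT, at 1236, 1263, 1105 and 1279 in DC, at 982, 1108, 1481 and 1239 in MC and at 1557, 1458, 1359 and 1394 in DMC. Hadhb stood at 684, 615, 569 and 535 in WT, at 504, 497, 427 and 593 in DC, at 402, 367, 574 and 428 in MC and at 582, 574, 570 and 570 in DMC. In both, DMC sat within WT, while the single losses were below WT but for MC replicate 3 and, for Hadhb, DC replicate 4 (departures 0.58 ± 0.16 and 0.65 ± 0.19).

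Bdh1, the mitochondrial enzyme gene that interconverts ketone bodies, stood at 202, 148, 85.7 and 57.1 in WT, at 30.6 to 64.9 for DC, at 11 to 55.1 for MC and at 35.5 to 65.3 for DMC. Its fall in MC passed the limma threshold (-2.07, adjusted p 0.0421), and the departure was 2.17 ± 0.63. By limma DMC was called different from neither MC (adjusted p 0.842) nor DC (0.96). Cpt1a, the gateway of fatty acids into mitochondria, departed by 1.01. Without MC replicate 3 the number of members above was 10, and over all alternatives it was 4 to 10. The median of this list was 0.19 without WT replicate 1 or without DC replicate 1, and 0.16 with library quality weights.

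Liver-type genes had a mixed pattern. Of 15 tested members 9 had a positive estimate, with a median of 0.54, and 2 were above at an unadjusted p under 0.05, Dio1 and Hal. The liver-type median was 0.22 without DMC replicate 3, 0.33 without DMC replicate 4 and 0.36 without DC replicate 3. Hal, the histidine ammonia-lyase gene, stood at 179, 146, 8.97 and 293 in WT, at 17.8, 4.98, 6.84 and 3.3 in DC, at 600, 346, 235 and 477 in MC and at 843, 262, 371 and 435 in DMC. DC was low in every library, as was WT replicate 3, and DMC was level with MC, a departure of 3.73 ± 1.12 (adjusted p 0.407). Over 31 alternatives the Hal departure ran from 3.18, without WT replicate 4, to 5.03, without WT replicates 2 and 3. It was called in 3 of them, the latter (adjusted p 0.0311), without WT replicate 3 (0.0194) and with DESeq2 (0.0171), and the adjusted p reached 0.691. Alb, the albumin gene, stood at 71.0 to 101 for WT, 71.6 to 98.7 for DC, 190 to 301 for MC and 272 to 388 for DMC. Alb was higher than WT in MC and in DMC by limma (adjusted p 0.00365 and 0.000116), and its departure was 0.54 (-0.00 to 1.08).

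Circadian genes lay mostly below the expectation, with 16 of 20 tested members negative, a median of -0.50 and 3 (15%) below at an unadjusted p under 0.05. Per3 stood at 184, 118, 288 and 80.2 in WT, at 406, 397, 659 and 633 in DC, at 207, 140, 110 and 166 in MC and at 219, 502, 87.5 and 132 in DMC. Per2 stood at 158 to 355 for WT, 393 to 680 for DC, 129 to 346 for MC and 98.7 to 415 for DMC. These period genes repress the clock's own activators and swing through the day. DC was above WT without overlap in both, and DMC replicate 2 was the DMC library in the DC range, with departures of -1.45 ± 0.64 and -1.38 ± 0.56. A clock level, built from genes that peak at opposite times of day, was 2.13 to 3.59 for DC, -0.79 to -0.18 in MC, -0.48 to 2.28 for WT and -0.68 to 3.47 for DMC. With this level as a covariate the departures were -0.97 for Per3, which is itself part of the level, and -1.06 for Per2. The labels give no hour of collection, and its part was not tested. The count was 0 with edgeR and 2 with DESeq2, with medians of -0.25 and -0.26, and it was 0 without WT replicate 4 or DMC replicate 4. It was 1 without WT replicate 2, DC replicate 3, MC replicate 1, MC replicate 4 or DMC replicate 3, and 7 without DMC replicate 2.

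Genes around the targeted proteins themselves showed small departures. Of 24 tested genes for Daxx, Atrx and histone H3.3 partners, 17 were positive and 5 (20.8%) above at an unadjusted p under 0.05, with a median of 0.09. The member farthest below was Hira, at -0.54. Trim28, a corepressor gene of silent repeats, stood at 1464 to 1694 for WT, 1242 to 1353 for DC, 1352 to 1533 for MC and 1487 to 1590 for DMC, so DC was below WT without overlap and DMC was not (departure 0.33 ± 0.11, adjusted p 0.495). Uhrf1, which recruits the maintenance DNA methyltransferase, departed by 0.87 and Asf1a, a histone chaperone gene, by 0.56. This count was 1 without DC replicate 3 or without DMC replicate 3, 2 without WT replicate 3, DMC replicate 4 or both of WT replicates 2 and 3, and 3 without WT replicate 2, DC replicate 1 or MC replicate 4. The median was 0.15 without MC replicate 4 and 0.14 without DMC replicate 2. Of 19 tested menin complex and target genes, 8 were positive, 1 (Jund, -0.64) was below at an unadjusted p under 0.05, and the median was -0.04.

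Genes of interest, described whatever their values, mostly showed no departure from additivity beyond their error, and their intervals say how large a departure could be. Bglap3, an osteocalcin-related gene with near-identical copies beside it, rose after each single loss and most after both. It stood at 99.0, 53.3, 62.8 and 37.3 in WT, at 326, 731, 338 and 620 in DC, at 619, 214, 359 and 546 in MC and at 1770, 2010, 4394 and 3289 in DMC. Each single loss raised it over WT (2.97 in DC and 2.74 in MC, adjusted p 0.00993 and 0.00508 with limma) and both together by 5.47. All 4 groups but DC and MC were apart, and the departure was -0.24 (interval -1.41 to 0.93), with DMC at 2678 where 3159 would have been the product. Over 31 alternatives the Bglap3 departure ran from -1.02, with library quality weights, to 0.05, with the lymphoid level as a covariate. On a linear count scale DMC was 1991 above the sum of the single differences, so the words additive and enhanced depend here on the scale.

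Ajuba, a LIM scaffold gene of the Hippo pathway, stood at 140, 113, 85.7 and 82.4 in WT, at 331, 283, 262 and 298 in DC, at 94.4, 88.9, 98.0 and 131 in MC and at 231, 285, 158 and 238 in DMC. It was higher with Daxx loss whether or not Men1 was present, and its departure was -0.38 (-0.98 to 0.22). Mme, the neprilysin gene, departed by -0.24 (-0.84 to 0.36) and the imprinted gene Mest by -0.37 (-1.23 to 0.49). Gli1, the Hedgehog effector gene, stood at 14.1 to 23.1 for WT, 18.7 to 58.1 for DC, 52.7 to 107 for MC and 60.1 to 118 for DMC. It was higher than WT in MC and DMC by limma (adjusted p 0.00723 and 0.00849), and its departure was -0.99 (-1.97 to -0.01).

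Gastric-type genes, which were high after Men1 loss with or without Daxx, gave intervals too wide to place. Cym, the chymosin gene, was at 0 to 8.78 for WT and 0 to 2.20 for DC, at 768 to 9856 for MC and at 427 to 4329 for DMC, with a departure of -0.49 (-3.13 to 2.15). WT and DC held 10 and 7 Cym reads in all, near the floor, so the DC minus WT part of that value is hardly measured. Gkn3 departed by -0.57 (-3.53 to 2.40), Pgc, the pepsinogen C gene, by 0.83 (-1.59 to 3.26), Gif by 0.29 (-2.28 to 2.85), Muc6 by -0.90 (-3.67 to 1.88) and Ghrl, the ghrelin gene, by -1.28 (-3.70 to 1.15). The gastric list had 5 positive and 12 negative estimates among 17 tested members. At an unadjusted p under 0.05 were 1 above and 1 below, 11.8% against 8.13% of all genes. The list median, -0.52, was -0.87 without MC replicate 2 and 0.05 without MC replicate 4. Within this list the regulator gene Onecut2 was the member farthest below, at 11 to 113 for WT, 117 to 498 for DC, 112 to 267 for MC and 56.5 to 161 for DMC (departure -3.23 ± 0.82, adjusted p 0.346). Farthest above was Galnt6, with a departure of 1.36. Among acinar genes Ctrl departed by 0.19 (-1.03 to 1.42), and 25 of 27 digestive enzyme genes had a positive estimate with 1 above at an unadjusted p under 0.05. The median of the enzymes, 0.57, was 0.00 with quantile scaling and 0.37 without DC replicate 1. Thbs4, a matricellular protein gene, departed by -1.10 (-2.46 to 0.27).

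Obp2b, an odorant binding lipocalin gene, shows where the measure loses meaning. It stood at 8.84, 9.04, 22 and 13.2 in WT and at 280, 207, 175 and 135 in DC, but at 0, 0, 0 and 2.90 in MC and at 2.73, 0, 1.31 and 2.74 in DMC. It rose in DC and fell in MC by limma (adjusted p 0.0135 and 0.0128). MC and DMC were both at the floor of 3 reads, so the increase with Daxx loss was not seen when Men1 was also lost, and no fold between MC and DMC is given. Its departure of -3.09 (-3.39 to -2.60 over 31 alternatives) was called with a pseudocount of 5 (limma adjusted p 0.0114) and under none of the others.

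**Figure D5:**
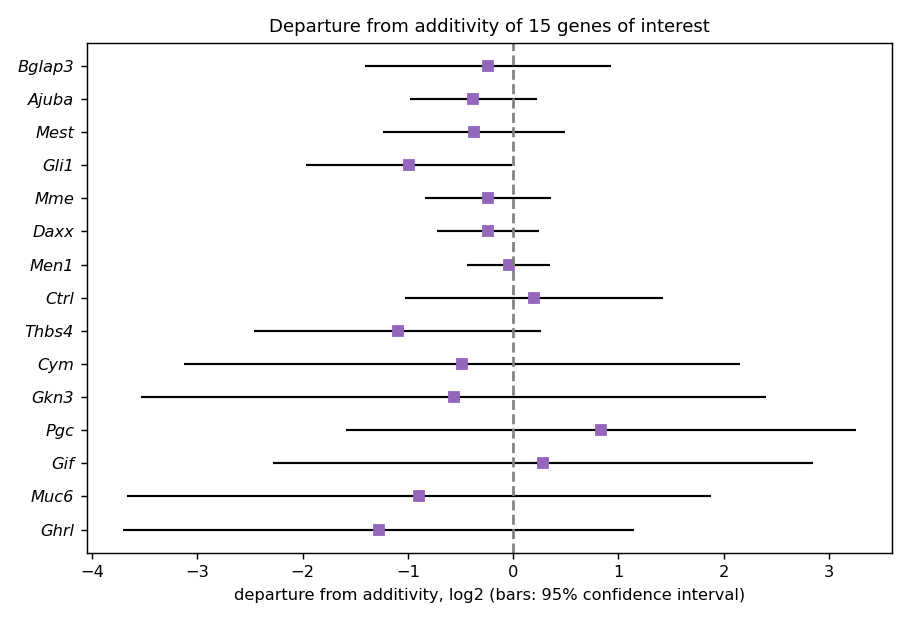
Departure from additivity on the log2 scale for 15 genes of interest, with squares at the limma estimates and bars for 95% confidence intervals from 4 libraries per group. Men1, Daxx, Mme and Ajuba have short bars over 0, Gli1 reaches just to -0.01, and the gastric-type genes have bars spanning several log2 units.

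Estimates for lymphocyte genes depended on which WT libraries were used. All 22 tested B and plasma cell genes had a positive estimate, with a median of 2.05, and 24 of 26 T and NK cell genes, with a median of 1.26, yet 1 and 0 of them were at an unadjusted p under 0.05. Cd79b, a B cell receptor subunit gene, stood at 51.3, 467, 923 and 163 in WT, at 60.5 to 301 for DC, at 23.8 to 156 for MC and at 279, 336, 64.0 and 29.2 in DMC. Jchain, the antibody joining chain gene, stood at 688 to 3144 for WT, 1452 to 3366 for DC, 251 to 980 for MC and 673 to 4079 for DMC. Without WT replicates 2 and 3 the B and plasma cell median was 0.25 and the T and NK cell median -0.26. Without WT replicate 3 these medians were 1.35 and 0.77, and without WT replicate 1 they were 3.09 and 1.99, with 15 and 8 members above at an unadjusted p under 0.05 against 3.92% of all genes. Without DMC replicate 2 the T and NK cell median was 0.79. With library quality weights 21 B and plasma cell members were above, against 8.94% of all genes, with edgeR 15, against 4.3%, and with DESeq2 17, against 4.44%.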

How the data were processed

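Total RNA from 16 pancreas samples was made into strand-specific libraries, per the labels' protocols. STAR 2.6.0b, GRCm38 and DESeq2 are named in the submitters' processing notes, with read counter, strand setting, annotation and gene filter not given in the sources used here. Deposited by the authors is one table that holds a normalized count signal, which is each gene's reads over a size factor for that library. Dividing by each library's smallest step gave whole reads for 100% of values (tolerance 0.01). Columns were matched to samples by the number in the labels.

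The log2(normalized count + 1) values were fitted with limma 3.58.1 (trend) in R 4.3.3, all 16 libraries together with a coefficient for each genotype, and p-values were adjusted by Benjamini-Hochberg over 14220 genes, threshold 0.05, two-sided. Alternatives were pseudocounts of 0.5 and 5, no filter or 50 counts in 4 libraries, quantile and TMM scaling, robust and weighted fits, covariates, a replicate block, leaving out libraries, a linear count scale, and edgeR 4.0.16 and DESeq2 1.42.0 on the recovered reads. Scripts were tested on simulated data. Coordinates came from GENCODE mouse release 21, which held 15152 of the gene identifiers and lacked 4. Promoters came from the RefSeq table on GRCm38.p6.

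Named were the 12 genes with the smallest p on each side, among those with a mean of at least 50 and an established symbol, 17 genes of interest whatever their values, and up to 3 members of each described list. Members and lists were chosen with earlier results of these data known. Raet1e, Gm4737, Gm10036, Nnat, Gapdh, Col1a1, Ifit1 and Fcgr1, the other crossing genes, and further list members given by estimate alone were chosen after their values were seen. A value of 0 allows up to 3 reads, which covers counting error only. Libraries of a group differed by more than sampling noise.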

Additional observations from a re-analysis of the deposited data

Results flagged for a closer look

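Of 380 groups of 4 libraries examined for the named genes, 34 held a library whose gap to the nearest of the others took up most of the group's range. For values from a normal distribution about 1 in 20 groups would be flagged. Normalized counts need not follow that distribution, so the rate by chance is not known here. MC replicate 4 gave 9 of the 34. In that library the gastric-type genes stood high, Cym at 9856 (the other MC libraries 768 to 2089), Gkn3 at 7060 (546 to 1640) and Gif at 3848 (305 to 811), while the acinar gene Ctrl stood low at 92723 (193038 to 209444). Col16a1 at 802, Onecut2 at 267, Aqp5 at 252, the clock gene Bhlhe40 at 351 and Obp2b at 2.90, where the others were at 0, were also high there.

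The other flags were spread over 13 libraries. DC replicate 1 was high for Mcm5 (381), Mcm6 (843), Onecut2 (498) and Mta2 (986), DC replicate 3 for Cd79b (301), and DC replicate 4 was low for Gkn3 (13.2) and Mzb1 (27.5). MC replicate 1 was high for Arntl2 (170.3), Uhrf1 (244) and Alb (301), MC replicate 2 for Fgfr3 (764) and Mta2 (1262), and MC replicate 3 for Gzma (25.3) and Cd79b (156). DMC replicate 2 was high for Ifit3 (309.9) and Ifit1 (257), DMC replicate 3 for S100a8 (11.8) and DMC replicate 4 for Nkx2-2 (96.9). WT replicate 1 was low for Col1a1 (1243), WT replicate 2 was high for Gpd2 (606) and low for Mest (140.1), and WT replicate 3 was high for Men1 (459). WT replicate 4 was high for Gli1 (23.1), Ghrl (16.5) and the pseudogene Gm10036 (547).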

How the results depend on the processing

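The number of genes called for a departure from additivity was 0 in 22 of 31 alternatives, edgeR and the replicate block among them. It was 2 with a pseudocount of 5, 11 with library quality weights, 1 with the Y-linked level as a covariate, 5 without WT replicates 2 and 3 together and 43 with DESeq2, and 0 to 8 when single libraries were left out (2 without WT replicate 1, 6 without WT replicate 3, 8 without WT replicate 4 and 1 without MC replicate 3). The cause was not tested. None of the 24 leading genes changed direction under any of the 31, and 18 of them were called by DESeq2. These genes were chosen by the smallest p of this contrast in the same libraries. That choice favours both outcomes, so neither is separate support. Replicate numbers did not pair the libraries: correlations of same-numbered libraries ran from -0.371 to 0.384, 1 of 16 correlated best with its own number, and the smallest adjusted p with the replicate block was 0.223.

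Estimates changed sign in 8 of 95 named genes, and the cause was not tested. Ctrl was -0.47 with quantile scaling, -0.14 with quality weights and -0.091 to 0.41 with single libraries left out. With quality weights Pgc was -0.15 and Gif -0.32, and Gif was -0.29 to 0.98 with single libraries left out. Men1 was 0.026 with the Y-linked covariate, 0.021 with the clock covariate and -0.16 to 0.015 with single libraries left out. With the lymphoid covariate Bglap3 was 0.054 and Cym 0.034. Cym was 0.88 without WT replicates 2 and 3, 0.11 with DESeq2 and -1.13 to 0.26 with single libraries left out, and Nkx2-2 was 0.053 without WT replicates 2 and 3. Gkn3 was -1.52 to 0.12 with single libraries left out. On the linear count scale Bglap3 was 1991 and Gkn3 1394 normalized counts. At an unadjusted p under 0.05, quality weights gave 1271 genes above and 1094 below, against 501 and 655.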

Other observations

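Some genes outside the described groups had values that lie far apart between libraries. The predicted protein coding gene Gm4737 on chromosome 16 stood at 33.6, 34.4, 1535 and 2004 in WT, at 1166 to 2317 for DC, at 642 to 1257 for MC and at 14.9 to 34.6 for DMC, a departure of -7.76 ± 1.48 (limma adjusted p 0.27). WT was split between the DMC level and the level of the single losses. The processed pseudogene Gm10036 stood at 547 in WT replicate 4 and at 208 to 558 for MC, and no higher than 8.16 in the other 11 libraries. Nnat, the imprinted neuronatin gene, stood at 139, 73.1, 53.6 and 176 in DMC and no higher than 42.4 in the other 12 libraries, with a departure of 3.68 ± 0.82 (adjusted p 0.304). Gapdh, a glycolytic gene often used as a reference, stood at 770 to 1497 for WT, 551 to 763 for DC, 1037 to 1437 for MC and 1172 to 1615 for DMC, so DC lay below all other libraries (departure 0.92 ± 0.25, adjusted p 0.39). Fcgr1, a macrophage receptor gene for antibody, stood at 10.6 to 74.2 for WT, 47.3 to 109 for DC, 65.7 to 209.5 for MC and 45.7 to 102 for DMC, with a departure of -1.89 ± 0.69.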
